A study of Rattus norvegicus with 92 samples.

Results

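Adipose tissue of adult male Wistar-Kyoto rats was compared between an acrolein and an air group, to ask whether a single inhaled exposure changed transcript levels in fat at the end of that exposure. The air group breathed 0 ppm acrolein nose-only for 4 h. The acrolein group was held at 3.16 ppm for most of the same 4 h, after brief lower steps of up to 1 ppm, and tissue was taken directly afterwards. The groups are named by strain, tissue and treatment only: the labels do not give the fat depot, and no gene was altered in either group. The members were every adipose library of the series, 10 of 92 samples in all, and the transcript rows above 0 in at least 2 replicates. That left 19153 of 20508 rows. The air group held replicates 1, 2, 5, 7 and 8 and the acrolein group replicates 10, 12, 14 and 15. A pair of air libraries both carry the number 8 and entered as 1 averaged replicate, so the comparison was of 5 against 4. The labels number the samples without stating that each number is a separate rat, so the p-values measure the spread between these samples only.

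Acrolein is a reactive, irritating aldehyde found in smoke, which acts first on the nose and airways. Adipose tissue stores triglyceride and releases fatty acids by lipolysis when catecholamines and glucocorticoids rise, and it secretes hormones such as leptin and adiponectin. Fat samples hold adipocytes together with stromal, vascular and immune cells, so in bulk RNA fewer cells of a type and less RNA per cell cannot be told apart. The files list rows by Ensembl identifier and do not pair them with gene symbols, so transcripts are described here by identifier, by level and by the tissue of the series in which they were highest.

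The depths of the air and acrolein replicates overlapped. After the authors' scaling was undone, the air replicates held 7368250 to 13854459 reads, with a median of 8830372. The acrolein replicates held 8500883 to 12364563, with a median of 10940991, and an exact two-sided permutation test of these totals over 126 splits gave p = 0.683 (the smallest possible p was 0.0159). The libraries numbered 8 were unequal in depth, with 2513375 and 9662912 reads. The log2 values of this pair correlated at r = 0.968 across rows, against 0.83 to 0.974 for all other pairs of adipose libraries. Their reads differed by a chi-square of 1.97 per row, while that of any other pair was at least 21.5. It was at least 41.5 for other pairs that held the shallower library. By chi-square the number 8 libraries were thus far closer to each other than different replicates were. By r they were not the closest, since air replicate 5 and acrolein replicate 12 reached 0.974.

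Air replicate 8 stood apart from the rest. It lay at 116 on the first principal component, which held 27.2% of the variance, while the other air replicates lay between -62.9 and -0.431 and the acrolein replicates between -20.3 and 25. Its mean correlation with the other replicates was 0.888, the lowest of the 9, and that of air replicate 5 was the highest at 0.949. Among 10367 rows with a mean of at least 50 normalized counts, air replicate 8 lay at least 2-fold outside the range of the other air samples in 1541 rows, or 14.9%. The same held for 2.27% of rows in air replicate 1 and for 0.135% in air replicate 5. Within the acrolein group, replicate 14 had the most such rows, 6.40%, and it had the highest score of 84.0 on the second component. Results that rest on air replicate 8 are given with and without it.

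**Figure D1:**
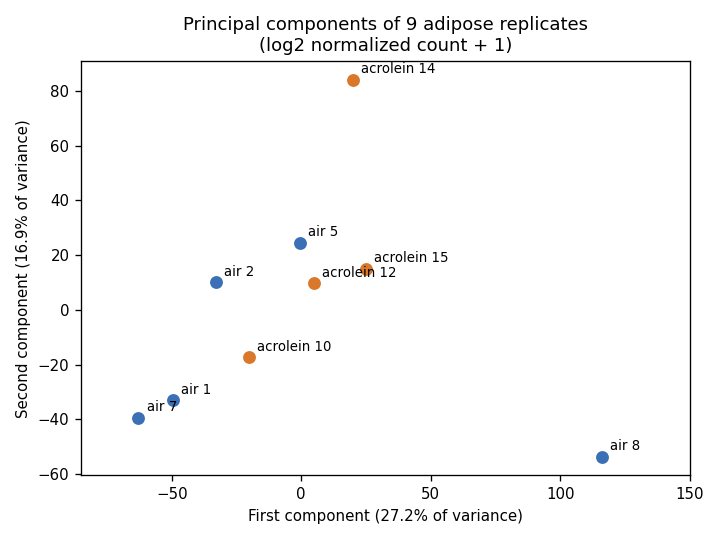
First and second principal components of the 9 adipose replicates, computed from log2(normalized count + 1), with air in blue and acrolein in orange. Air replicate 8 lies at 116 on the first component, beyond all others, and acrolein replicate 14 lies at 84.0 on the second.

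No transcript passed the test between acrolein and air adipose tissue. With limma and Benjamini-Hochberg adjustment, 0 of 19153 rows (0%) passed both limits, which were an adjusted p no higher than 0.1 and a change beyond 1.2-fold in either direction, and the smallest adjusted p was 0.998. The median log2 fold change of acrolein against air over all rows was 0.00, with a 5th percentile of -0.75 and a 95th of 0.68. The unadjusted limma p was under 0.05 in 520 rows, which is 2.71% of those tested and a smaller share than the limit of 0.05 itself. Of these, 232 (1.21%) were higher and 288 (1.5%) were lower after acrolein. The groups did not overlap in 198 rows (1.03%), with the acrolein replicates higher in 0.548% and lower in 0.486% of all rows.

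The rows at an unadjusted p under 0.05 were of different abundance in each direction. None of them was called, so the values below describe the rows picked and are not a result about acrolein. The 232 higher rows had a median level of 86.4 normalized counts and a median log2 difference of 0.91. The 288 lower rows had a median level of 17.4 and a median log2 difference of -1.09, and 115 of them had a mean below 10, against 75 of the higher rows. Of all 19153 rows tested, 5481 had a mean below 10. Only some of the rows at p under 0.05 were separated in every replicate, with 58 of the higher and 60 of the lower rows having no overlap between groups. That was so in 198 of all rows tested (1.03%), and picking rows by p favors separated ones.

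The count tests gave almost the same number of calls. edgeR's quasi-likelihood test on the recovered reads called 0 rows (0%), with 725 at an unadjusted p under 0.05 and a smallest adjusted p of 0.980. DESeq2 called 1 of 20508 rows (0.00488%), with 648 at an unadjusted p under 0.05 and a smallest adjusted p of 0.0972. DESeq2 gave no adjusted p for 868 rows. That single row is described with the named rows.

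What a difference had to be to stand out depended on the level of a transcript. In the 6827 rows with a mean of 100 to 1000 normalized counts, the median standard error of the log2 fold change was 0.26, and the 95% interval typically reached 1.48-fold to either side. In the 5481 rows with a mean under 10, the standard error was 0.55 and the interval reached 2.28-fold. The interval lay wholly within 2-fold of no change in 8530 rows, or 44.5% of those tested. That share was 4.73% below a mean of 10, 32.2% from 10 to 100, 78.2% from 100 to 1000 and 78.4% above 1000. For these 8530 rows a change of 2-fold or more on the scale of log2(value + 1) lay outside the interval. Of them, 259 had a mean under 10. There the added 1 shrinks fold changes, so a 2-fold change in the transcript itself was not excluded. No row had an interval within the 1.2-fold limit used for calls (0 rows), so differences of that size were not excluded in any row. The residual SD of adipose rows averaging 50 or more had a median of 0.41 on the log2 scale, within the 0.35 to 0.46 found in the 7 other tissues. Without air replicate 8 the adipose median was 0.32, below that of all 7.

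**Figure D2:**
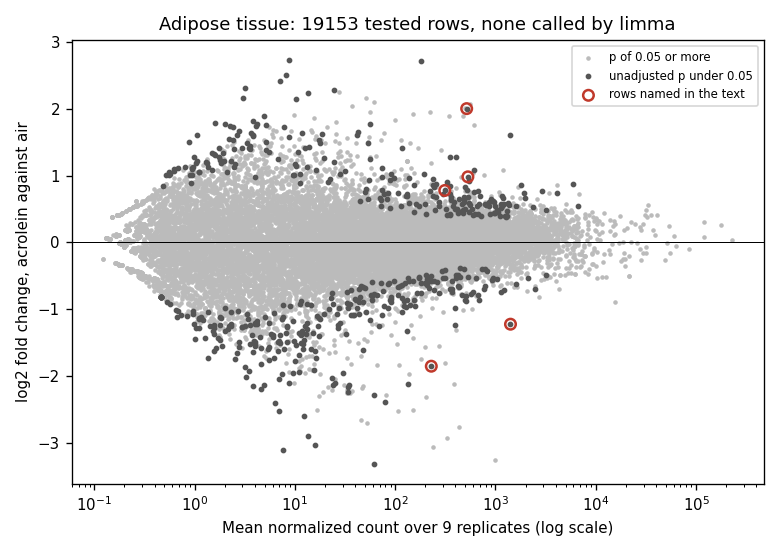
Log2 fold change of acrolein against air (vertical axis) against mean normalized count over the 9 replicates (log scale) for each of 19153 tested rows; dark points have an unadjusted limma p under 0.05 and circles mark the 5 rows named in the text. Large differences are most frequent at low counts, and no row was called by limma.

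The rows with the smallest unadjusted p at a mean of at least 50 were ranked in each direction, and the first 2 of each are given in full. The 10 highest-ranked rows that were higher after acrolein had log2 fold changes of 0.64 to 1.28, and the groups did not overlap in 8 of them. The 10 that were lower had log2 fold changes of -1.85 to -0.54, and 4 did not overlap. Over all rows tested the groups did not overlap in 1.03%. Ranking by p favors separated rows, so the counts of 8 and 4 largely follow from the choice. No row of either ranking was called, since limma gave each an adjusted p of 0.998.

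ENSRNOT00000088508 had the smallest unadjusted p in this ranking. Its normalized counts were 394, 464, 417, 320 and 267 in air replicates 1, 2, 5, 7 and 8, and 772, 856, 713 and 580 in acrolein replicates 10, 12, 14 and 15. All acrolein values lay above all air values. The means were 372 ± 78.3 (SD, n = 5) in air and 730 ± 116 (SD, n = 4) in acrolein. The fold was 1.98 with a 95% interval of 1.44 to 2.70, on log2(value + 1) a change of 0.98 ± 0.21 (SE), with a limma p of 0.000463 and an adjusted p of 0.998. DESeq2 on recovered reads gave an adjusted p of 0.142, which became 0.00674 without air replicate 8. Without that replicate limma gave an adjusted p of 0.414, and edgeR called 0 rows. The same row had a higher mean after acrolein in the 7 other tissues, with log2 fold changes of 0.74 in nasal epithelium, 0.52 in lung, 0.75 in liver, 0.31 in adrenal gland, 0.90 in muscle, 0.59 in hippocampus and 0.75 in hypothalamus. It was not called by limma in any of them.

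ENSRNOT00000074626 was the next row in that order. It stood at 192, 231, 248, 250 and 261 normalized counts in the air replicates and at 435, 390, 474 and 331 in the acrolein replicates, again without overlap. The means were 237 ± 27.2 (SD, n = 5) and 407 ± 61.4 (SD, n = 4). The fold was 1.71, with a 95% interval of 1.29 to 2.27 and a limma p of 0.00122, and the adjusted p was 0.998. DESeq2 gave an adjusted p of 0.293 with all replicates and of 0.0117 without air replicate 8. The limma adjusted p of this row without that replicate was 0.414. Its level was far higher in lung, where it averaged 6285, and there the log2 fold change was 0.01.

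ENSRNOT00000010712 had the smallest unadjusted p among the lower rows. It was at 256, 217, 304, 541 and 266 in air and at 41.5, 320, 73.2 and 46.3 in acrolein. Acrolein replicate 12 lay within the air range, while the other 3 lay below every air value. The log2 fold change was -1.85 ± 0.51 (SE) with a limma p of 0.00338 and an adjusted p of 0.998. Without acrolein replicate 12 it was -2.50. In nasal epithelium this row went the other way, from a mean of 52.4 in air to 640 in acrolein, a log2 fold change of 3.36 with a limma adjusted p of 0.00396. In muscle the log2 fold change was -1.90, with a limma adjusted p of 1.00.

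ENSRNOT00000016907 was among the rows found mainly in fat, with its next highest mean in adrenal gland at 107. It was at 1845, 1704, 1018, 2072 and 2786 in air and at 1065, 373, 940 and 922 in acrolein. The groups overlapped through air replicate 5 and acrolein replicate 10. The means were 1885 ± 639 (SD, n = 5) and 825 ± 308 (SD, n = 4), a fold of 0.428 with a 95% interval of 0.256 to 0.714. The limma p was 0.00351 and the adjusted p was 0.998, and DESeq2 gave adjusted p of 0.541 with air replicate 8 and 0.0829 without it. The limma adjusted p without air replicate 8 was 0.414.

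ENSRNOT00000001916 was the single row called by DESeq2, and it is named because it was called, after its values were seen. Its air values were 252, 136, 130, 127 and 121, and its acrolein values were 1422, 2052, 225 and 187. The acrolein group was thus split between 2 high and 2 low replicates, and the latter lay near the highest air value. DESeq2 gave a log2 fold change of 2.67 ± 0.58 (SE) with an adjusted p of 0.0972. limma gave 2.00 ± 0.63 (SE) with an adjusted p of 0.998, and edgeR gave an adjusted p of 0.980. In nasal epithelium the row had a log2 fold change of 1.92 with a limma adjusted p of 0.0927.

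**Figure D3:**
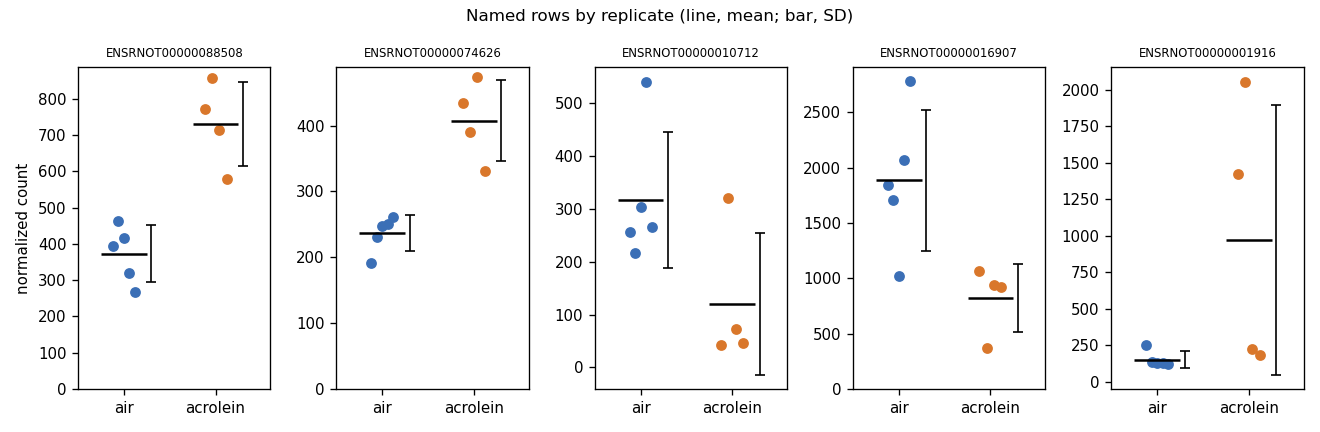
Normalized counts of the 5 named rows in each air (blue, n = 5) and acrolein (orange, n = 4) replicate, on a linear axis of its own for each row; the horizontal line is the group mean and the bar is 1 SD. The groups separate in ENSRNOT00000088508 and ENSRNOT00000074626 and overlap in the other 3.

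Rows found mainly in fat were split almost evenly between higher and lower means after acrolein. They are the 65 rows whose mean was at least 100 normalized counts in adipose tissue and over 4-fold above that in each of the 7 other tables. Their high level in fat is how they were chosen, and in the absence of gene names the tissue label was not checked with defining markers. Since each table was normalized separately, these levels are set side by side without a test. Their adipose means ran from 107 to 176063 with a median of 1612, while their median level was 10.1 in liver, 13.5 in hippocampus, 16.9 in hypothalamus, 44.8 in nasal epithelium, 49.5 in lung, 59.2 in muscle and 73.7 in adrenal gland. These rows took 5.65% to 8.61% of the normalized total in the air replicates and 6.92% to 7.58% in the acrolein replicates. The acrolein range lay inside the air range only with air replicate 8, since the other air replicates reached 7.38% and acrolein replicates 14 and 15 lay above that, at 7.39% and 7.58%.

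Of the 65 rows, 33 had a higher and 32 a lower mean after acrolein. Their median log2 fold change was 0.00, equal to that of all rows tested, and single rows ranged from -1.23 to 1.01. None was called (0 rows, as over the whole table), 2 had an unadjusted limma p under 0.05, both lower, beside 2.71% of all rows, and the groups did not separate in any (0 rows), beside 1.03% of all rows. ENSRNOT00000016907 had the lowest log2 fold change of the 65. The 95% interval lay within 2-fold in 41 of them. Their median residual SD between replicates was 0.50 on the log2 scale against 0.41 over all rows averaging 50 or more. The highest value of a row was in air replicate 8 for 16 rows, in acrolein replicate 14 for 15 and in air replicate 1 for 14. The lowest was in air replicate 7 for 14 rows and in acrolein replicate 14 for 13, so the extremes came mostly from the same few replicates of both groups.

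Transcripts that belong mainly to another tissue were also read in each adipose replicate. For each of 6 other tissue types, rows were taken with a mean of at least 500 in that tissue and under 1/20 of that in every other non-adipose table, with both brain regions counted as brain. Their level in an adipose replicate is given as the median over rows of the share of the level in their own tissue, in ppm. Lung rows (34 rows) stood at 509, 4420, 3467, 2423 and 687 ppm in the air replicates and at 42530, 1715, 3192 and 1779 ppm in the acrolein replicates. Acrolein replicate 10 was thus far above all others, at 4.25% of the lung level. Across the 34 rows its values followed the lung levels with a Spearman rho of 0.953, as a description over rows of 1 library.

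Liver rows were also highest in acrolein replicate 10, at 3841 ppm over 283 rows, where the other replicates ran from 0 to 737 ppm. Summed normalized counts of liver rows lay closer together, at 60241 in acrolein replicate 10 and 25706 to 50305 in the others. Muscle rows (163 rows) were highest in air replicate 1, at 6032 ppm, followed by air replicate 8 at 1411 ppm, and the other 7 replicates lay between 140 and 355 ppm. Summed normalized counts of muscle rows were also highest in air replicate 1, at 82517. By that sum air replicate 8, at 37152, lay within the 31671 to 49069 of the other 7. Brain rows (198 rows) had their highest median in air replicate 8 at 2612 ppm, with the others at 129 to 475 ppm. Summed normalized counts of brain rows were instead lowest in air replicate 8, at 10387 against 12154 to 19608. In that replicate 5 brain rows were at 0, against 68 to 97 in the others. The deeper library numbered 8 held brain rows at a median of 4549 ppm and the shallower one at 0, where 1 read is worth 3.89 normalized counts. Whether the difference in depth accounts for this was not tested. Adrenal rows (26 rows) were highest in air replicates 2 and 8, at 4683 and 3948 ppm. The libraries numbered 8 differed here too, with 1074 ppm in the deeper and 5953 ppm in the shallower one, and the acrolein replicates held 702 to 1419 ppm. Nasal rows (95 rows) had a median of 0 in 6 replicates and reached 824 ppm in air replicate 7, 318 ppm in acrolein replicate 10 and 82.2 ppm in air replicate 8. Their summed normalized count was 3795 in air replicate 7. By that sum acrolein replicate 10, at 1096, lay within the 837 to 1227 of the remaining replicates. Acrolein replicate 10 thus stood highest for lung and liver rows and an air replicate for the rest, and lung rows in the other 8 replicates still ran from 509 to 4420 ppm.

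**Figure D4:**
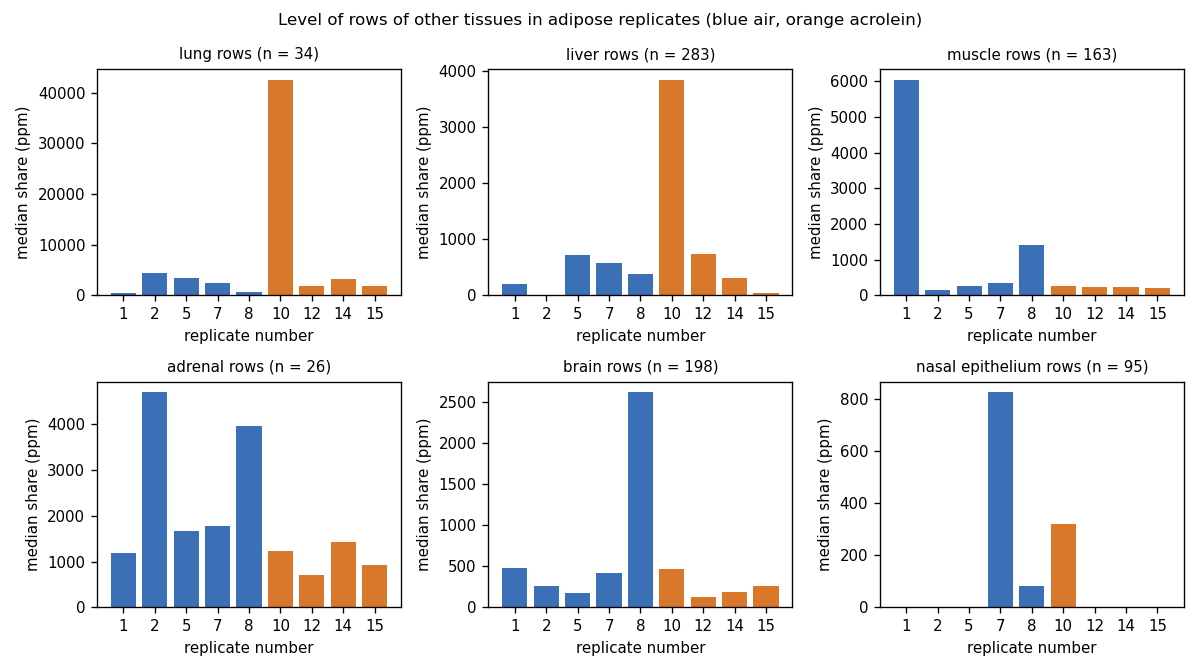
Level of rows of 6 other tissue types in each adipose replicate, as the median share in ppm of the level in their own tissue, with air in blue and acrolein in orange and a scale of its own in each panel. Lung and liver rows are highest in acrolein replicate 10, muscle rows in air replicate 1, brain rows in air replicate 8 and nasal rows in air replicate 7.

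These single replicates moved the group difference of their rows. All 34 lung rows had a higher mean after acrolein, with a median log2 fold change of 0.91, which was 0.14 without acrolein replicate 10. Of 280 tested liver rows, 231 were higher with a median of 0.58, and the median was -0.06 without that replicate. Of 158 tested muscle rows, 144 were lower with a median of -0.94, and it was -0.49 without air replicate 1. Brain rows had a median of -0.27 with 127 of 171 lower, and of -0.01 without air replicate 8. Adrenal rows had a median of -0.26, which was -0.68 without air replicate 1, -0.06 without air replicate 2 and 0.04 with the deeper library alone as number 8. Nasal rows had a median of -0.12, which was -0.04 without air replicate 7 and -0.28 without air replicate 8. limma called 0 of these rows in each group, against 0% over all rows. At an unadjusted limma p under 0.05, 16 muscle rows were lower, 10 liver rows were higher and 2 lower, and 2 lung rows were higher, beside 2.71% of all rows. By the same limit 2 adrenal rows were lower, 1 brain row was higher and 4 were lower, and 1 nasal row was lower. What part these high replicates had in other differences between the groups was not tested.

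Leaving out air replicate 8 changed the counts more than leaving out any other replicate. Without it the rows with an unadjusted limma p under 0.05 went from 520 to 2169, or 11.4% of 18962 rows, and the groups did not overlap in 1022 rows (5.39%). limma and edgeR still called 0 rows (0%). DESeq2 called 173 of 20508 rows (0.844%), of which 113 (0.551%) were higher and 60 (0.293%) lower. Leaving out another replicate gave between 0 and 24 DESeq2 calls, and between 375 and 728 rows with an unadjusted limma p under 0.05. The median SD within the air group was 0.43 with replicate 8 and 0.29 without it, on the log2 scale, against 0.30 in the acrolein group.

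**Figure D5:**
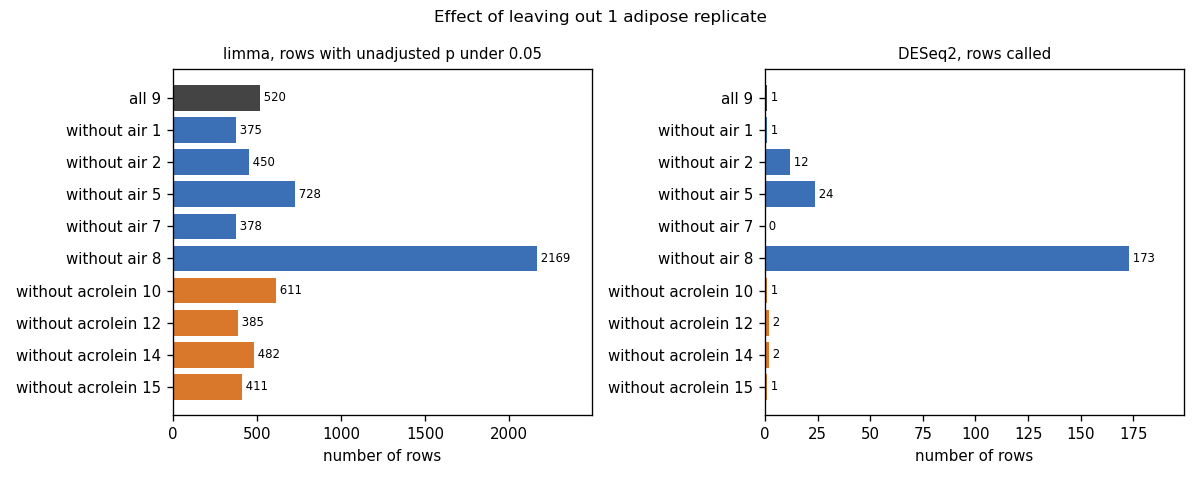
Number of rows with an unadjusted limma p under 0.05 (left) and number called by DESeq2 on recovered reads (right), with all 9 replicates and with each replicate left out in turn. The bars without air replicate 8 reach 2169 and 173 rows, against 520 and 1 with all 9.

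Air replicate 8 was nearer to the acrolein than to the air replicates, by the midpoint of the other samples, in 156 of these 173 rows (90.2%). It was so in 70.7% of all 10367 rows averaging 50 or more, with the direction of each row taken from the other 8 replicates. Leaving out air replicate 8 favors calls of rows in which it opposed the other air samples. Its position in the 173 rows thus largely follows from how they were chosen and supports nothing further. It did not oppose them in every row, since it lay on the air side of the midpoint in 17. In ENSRNOT00000088508 it held the lowest air value, 267, the farthest from the acrolein values. With air replicate 8 in the fit, 171 of the 173 rows kept their direction, which is little of a check since the other 8 replicates were in both fits. Of the 173, 36 had an unadjusted limma p under 0.05, beside 2.71% of all rows. The median size of their log2 fold change by limma was 0.42, against 0.69 by limma without air replicate 8. The rows were mostly abundant, with a median level of 836 normalized counts, and 68 had a mean of at least 1000. By DESeq2 without air replicate 8, their log2 fold changes reached 2.59 among the higher rows and -1.21 among the lower ones. The 2.59 was that of ENSRNOT00000001916, which DESeq2 also called with all replicates. The other 4 air and 4 acrolein replicates did not overlap in 131, beside 5.39% of 18962 rows. The 173 rows were called from these same replicates, so their separation largely follows from the choice.

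These 173 rows included 5 of the 65 rows found mainly in fat (7.69%) and 2 of the 163 muscle rows (1.23%), beside 0.844% of all rows, and 0 of the lung, liver, adrenal, nasal or brain rows. These groups differed in level. The median in fat was 1612 normalized counts for the 65 rows, 14.3 for muscle rows and 2.46 to 51.8 for the groups with 0. No share among rows of like level was computed, and whether level accounts for the difference was not tested. Among the other tissues, 23.1% of them were highest in muscle, 22.5% in hippocampus, 21.4% in lung, 13.9% in nasal epithelium, 8.09% in liver, 6.36% in hypothalamus and 4.62% in adrenal gland. Over all 10367 adipose rows with a mean of at least 50, these shares were 14.2%, 18.4%, 18%, 22.4%, 7.26%, 13.9% and 5.81% in the same order.

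Rows called by the same limma limits in nasal epithelium or in liver were also read in fat. Of 120 rows higher in acrolein nasal epithelium, 110 were tested in adipose tissue, and 38 of them had a higher mean after acrolein. Their median log2 fold change in fat was -0.21. At an unadjusted limma p under 0.05, 3 of the 110 were higher and 10 lower, beside 1.21% and 1.5% of all rows tested in fat. The 12 rows lower in nasal epithelium had a median of 0.12 in fat. Of 37 rows higher in acrolein liver, 36 were tested in fat and 25 had a higher mean, with a median of 0.33, beside 0.00 over all rows tested. The 32 rows lower in liver had a median of -0.31 in fat, with 3 at a higher mean. For both liver groups 0 rows reached an unadjusted limma p under 0.05 in fat, against 2.71% of all rows tested there. None of the rows in these groups was called in adipose tissue, where limma called 0% of all rows, and the difference between tissues was not tested. Rows that belong mainly to liver stood highest in acrolein replicate 10. The values of the rows called in liver were not computed without that replicate, and its part in them was not tested.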

How the data were processed

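RNA was extracted by the authors from frozen tissue with a cutoff on RNA integrity, made into mRNA libraries and sequenced on a NextSeq 500. Per the study's methods and processing notes, reads were aligned to the rat build rn7 in Partek Flow, counted on Ensembl features and normalized in R 4.1.3 with DESeq2 1.34.0. The values the authors deposited are a signal: read counts divided by a size factor for each library, 1 table per tissue, so tests were run within the adipose table. The smallest value above 0 in a column was taken as 1 read and the whole column was divided by it. All values came out whole (100%, tolerance 0.01). All columns were matched to samples by name (0 unmatched).

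Rows were tested with limma 3.58.1 in R 4.3.3 (trended eBayes) on log2(value + 1), a scale that understates changes of low rows, and p-values were adjusted by Benjamini-Hochberg over 19153 rows. Calls needed an adjusted p no higher than 0.1 together with a fold over 1.2 or under 0.833, the limits of the study's methods. edgeR 4.0.16 and DESeq2 1.42.0 were run on the recovered reads, with the libraries numbered 8 summed, as alternatives. Named rows were those with the smallest unadjusted p in each direction at a mean of at least 50, with at most 2 printed each way, plus any call by the count tests. Of 20508 identifiers 0 matched the RefSeq table at hand, so the planned gene lists, cell type markers, other named genes and sequences were not computed. Row groups by tissue used the tables' means. The main limma, edgeR and DESeq2 fits were run on simulated data with large changes and with none. That simulation held no outlying replicate, and the other alternatives were not run on it, so it does not test the fits under the spread seen here. The members and lists were chosen with earlier results of these data known. Reads are not independent molecules, and recovered depth bounds counting error only. Other alternatives were the pseudocount, filters on low values, scaling, trend, sample weights, the number 8 libraries and each replicate left out.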

Additional observations from a re-analysis of the deposited data

Results flagged for a closer look

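In 28 groups of values looked at, 8 values lay far from the rest of their own group by Dixon's test, from 5 of the 9 replicates. Among normally distributed values, chance alone flags such a gap in about 1 of 20 groups. Many values here were shares or counts on a linear scale, some tied at 0, and the named rows were chosen from these data. That rate therefore need not hold, and nothing is drawn from the number flagged. In the air adipose group, brain rows stood at a median of 2612 ppm of their brain level in replicate 8, where the next value was 475. Their summed normalized count was the lowest of the 9 replicates in air replicate 8, at 10387. Muscle rows stood at 6032 ppm in air replicate 1 (next 1411), and nasal rows at 824 ppm in air replicate 7 (next 82.2). In the acrolein group, replicate 10 held lung rows at 42530 ppm (next 3192) and nasal rows at a median of 318 ppm, where the others were at 0. Summed normalized counts of nasal rows were 1096 in acrolein replicate 10 and 837 to 1081 in the other acrolein replicates.

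Among the named rows, ENSRNOT00000001916 was at 252 normalized counts in air replicate 1, and the next air value was 136. ENSRNOT00000010712 was at 541 in air replicate 7 (next 304) and at 320 in acrolein replicate 12 (next 73.2), so it had a distant replicate in both groups.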

How the results depend on the processing

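The limma count of 0 calls was also found under 23 of 24 alternatives, and DESeq2 gave 1. The 520 rows with an unadjusted limma p under 0.05 became 336 with a mean of at least 10 and 1807 with array weights, and leaving out 1 replicate gave 375 to 2169. The single DESeq2 call became 0 to 173 calls when 1 replicate was left out, with 0 without air replicate 7, 12 without air replicate 2, 24 without air replicate 5, 173 without air replicate 8, and 2 without acrolein replicate 12 or 14. These were chosen after seeing the data, as were the settings for row groups. edgeR gave 0 calls in all 9 such fits. The cause of these changes was not tested.

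The share of higher rows among those with an unadjusted p under 0.05 was 44.6%, and it was 37.1% with edgeR, 35.3% with DESeq2, 54.8% without acrolein replicate 14, 56.0% without acrolein replicate 15 and 54.4% without air replicate 8. The 5 named rows had the same direction in all 22 alternatives. ENSRNOT00000088508 ranged from 0.84 to 1.09, ENSRNOT00000074626 from 0.70 to 0.87, ENSRNOT00000010712 from -2.50 to -1.41, ENSRNOT00000016907 from -1.43 to -0.88 and ENSRNOT00000001916 from 1.41 to 2.67 on the log2 scale, the last called by DESeq2 only. Of the row groups, the median changed sign in liver, brain, adrenal and adipose rows, with extremes of -0.06, 0.01, 0.04 and -0.05, and DESeq2 moved the medians of lung rows to 1.92, liver rows to 1.48, muscle rows to -2.05, adrenal rows to -0.64, nasal rows to -0.34 and brain rows to -0.99, on the scale of its own log2 fold changes. With 0 calls, the share of calls that were higher could not be computed. No paired analysis was possible because replicate numbers were not shared between the groups. The SE of rows with few reads limits what can be seen.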
